A study of Mus musculus with 67 samples.

Results

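Liver RNA of mice lacking the clock gene Bmal1 in the liver (Bmal1LKO) was compared with that of wild type (WT) under time-restricted feeding. Of the 67 libraries of the series, 17 were used, chosen by their labelled genotype and feeding: 6 Bmal1LKO libraries, 1 each at zeitgeber time (ZT) 4, 8, 12, 16, 20 and 24, and 11 WT libraries at the same times, with 2 at each time except ZT12, which had 1. Zeitgeber time counts hours from lights on. All mice were C57BL/6 aged 24 weeks and on high-fat food for 12 of them, here within a daily window only. The libraries of both genotypes fed that diet ad libitum, 6 from Bmal1LKO and 12 from WT, were used where the comparison was repeated without restriction. The sources used here do not give the hours of the window, the Cre driver or the deleted exons. No label ties libraries to separate animals, so the spread behind each p-value is that between these libraries and may be technical.

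BMAL1 pairs with CLOCK, or with its relative NPAS2, and binds E-box sequences to switch on the genes of its own inhibitors (Per and Cry), of the REV-ERB repressors (Nr1d1, Nr1d2) and of D-box activators such as DBP. REV-ERBs repress, and ROR proteins activate, genes with ROR elements, among them Arntl (the symbol of Bmal1), Npas2, Cry1 and Nfil3. In the liver this clock times lipid, glucose, bile acid and drug metabolism, and DBP, TEF and HLF are known activators of detoxification genes.

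Values were deposited as FPKM and compared as log2(FPKM + 1), a scale that understates changes of low genes. Unless given as FPKM, a value is the log2 difference Bmal1LKO minus WT ± SE of the level over the day, from limma with a cosine and sine of time in each genotype, and genes passed at a Benjamini-Hochberg adjusted p under 0.05 over the 9825 genes averaging 1 FPKM or more. Reads recovered from the FPKM came to 10492590 to 14981460 per Bmal1LKO library and 11709069 to 22849003 per WT library. The WT libraries differed among themselves by replicate number. The log2 values of each library, restricted or ad libitum, were set against the mean of the 17 restricted libraries. The slope of these deviations on the genes' GC content, per 10 percentage points, was 0.24 to 0.40 in Bmal1LKO, -0.10 to 0.52 in WT replicate 1 and -0.79 to -0.22 in WT replicate 2. Mitochondrial transcripts made up 5.11 to 6.93% of the FPKM in Bmal1LKO and 4.26 to 13.9% in WT. Results are therefore also given after a correction for GC content and exon length, and against the 5 WT replicate 1 libraries alone, which lack ZT12. One of those 5, at ZT24, stood apart in the values of many genes given below, and both WT libraries at ZT16 stood apart in pancreas transcripts.

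The deleted gene was examined first. Arntl (ENSMUSG00000055116, chr7:113207465-113314126, plus strand, GRCm38) was at 2.00 to 4.34 FPKM in Bmal1LKO, with a median of 3.08, and 0.416 to 12.6 in WT, with a median of 7.83. At ZT8 and ZT12 the 3 WT libraries, at 0.416, 0.585 and 0.892 FPKM, lay below every Bmal1LKO library, and at the other times all WT libraries lay above them, from 5.38 to 12.6. Over the day the level difference was -0.53 ± 0.23 (adjusted p = 0.112), which did not pass, and ad libitum it was -0.22 ± 0.25. The value sums all exons of the gene, so it does not check the deletion of some of them. Arntl reached its fitted peak at 22.2 h in WT, with an amplitude of 1.71 on the log2 scale, against an amplitude of 0.35 in Bmal1LKO. The difference in rhythm had an unadjusted p of 0.00325 and did not pass over all genes (adjusted p = 0.998).

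Of the 19 core clock genes tested, 5 rose and 3 fell (corrected 6 and 3, WT replicate 1 alone 3 and 3). Over all genes 19.0% rose and 5.57% fell as deposited, 20.2% and 5.19% did after the correction, and 491 and 202 of 9825 did against WT replicate 1 alone. The counts of each list below are given in the same way, with members that rose first, and are to be read against these shares. The other clock genes listed, Per3, Bhlhe41 and Csnk1e, lay below 1 FPKM on average. The median difference of the list was 0.12, and that of all genes 0.05.

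Of the genes known to be repressed by REV-ERBs, Npas2 and Cry1 rose. Npas2, the partner that can stand in for CLOCK, was at 3.22 to 5.30 FPKM in Bmal1LKO, with a median of 3.66, and 0 to 1.78 in WT, with a median of 0.415. The groups did not overlap, with the lowest Bmal1LKO library above the highest WT library, and Npas2 rose by 1.75 ± 0.12 (adjusted p = 2.38e-07). Cry1, an inhibitor of BMAL1, was at 16.9 to 25.5 FPKM in Bmal1LKO, with a median of 21.04, and 1.66 to 23.01 in WT, with a median of 10.6. WT came within the Bmal1LKO range only at ZT16 and ZT20, while at ZT8 it was at 1.66 and 2.46 FPKM against 19.01. Cry1 rose by 1.31 ± 0.10 (adjusted p = 1.26e-06). The ad libitum differences of these 2 genes were 1.84 and 1.44, and the restricted ones also passed after the GC and length correction and against WT replicate 1 alone. Nfil3, a repressor of D-box genes with a ROR element, did not pass, at 0.21 ± 0.26 (adjusted p = 0.606).

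Of the genes known as direct E-box targets of BMAL1, the REV-ERB genes fell and the D-box activators did not pass. Nr1d2, which encodes REV-ERB beta, was at 1.82 to 6.82 FPKM in Bmal1LKO, with a median of 3.72, and 2.09 to 39.1 in WT, with a median of 15.6. The groups overlapped only through 4 WT libraries of ZT4, ZT20 and ZT24, and Nr1d2 fell by 1.65 ± 0.29 (adjusted p = 0.00127). Nr1d1, the gene of REV-ERB alpha, ranged from 0.388 to 2.70 FPKM in Bmal1LKO, with a median of 0.888, and 0.122 to 20.4 in WT, with a median of 2.18. Its difference lay at ZT4, ZT8 and ZT24, where each Bmal1LKO library was below both WT libraries, and it fell by 0.85 ± 0.23 (adjusted p = 0.0150). That call was lost with time points as categories, without time terms, with limma voom on recovered reads and without the Bmal1LKO library of ZT4. Ciart, an inhibitor of BMAL1, was at 0 to 0.918 FPKM in Bmal1LKO, with a median of 0.173, and 0.0641 to 7.87 in WT, with a median of 0.344. WT was high from ZT8 to ZT16 only, the highest Bmal1LKO library was that of ZT12, and Ciart fell by 0.88 ± 0.23 (adjusted p = 0.0148), a call lost without the Bmal1LKO library of ZT16, without time terms and with the replicate block. Dbp was at 1.62 to 6.54 FPKM in Bmal1LKO, with a median of 1.94, and 0.172 to 28.7 in WT, with a median of 0.858. Its highest WT library, at ZT8, had 28.7 FPKM against 3.44 in Bmal1LKO, but at ZT4, ZT20 and ZT24 Bmal1LKO was above both WT libraries of the same time, and the level did not pass at -0.12 ± 0.38 (adjusted p = 0.851). Tef and Hlf, relatives of Dbp, had differences of -0.17 ± 0.22 (adjusted p = 0.614) and -0.48 ± 0.20 (adjusted p = 0.0936).

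Among the Per genes, Per2 was at 2.50 to 9.50 FPKM in Bmal1LKO, with a median of 4.41, and 0.565 to 8.25 in WT, with a median of 4.07. Both genotypes had their highest library at ZT20, and the level did not pass, at 0.33 ± 0.21 (adjusted p = 0.269). Per1 rose by 0.65 ± 0.21 as deposited (adjusted p = 0.0368), but after the GC and length correction the difference was 0.03 (adjusted p = 0.896), and 10 of 17 fits without 1 library lost the call. Cry2 rose by 0.52 ± 0.18 (adjusted p = 0.0492), and 12 of 17 fits without 1 library lost that call. Clock, Rora, Bhlhe40 and Csnk1d did not pass as deposited, with differences from -0.31 to 0.47. Clock and Bhlhe40 passed after the correction, at 0.47 (adjusted p = 0.00767) and 0.65 (adjusted p = 0.0424).

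The windows before the start sites of 4 E-box genes are shown because these genes carry the same letters and had different level differences. The motif CACGTG, which reads the same on both strands, is in capitals, and each line runs 5′ to 3′ towards the start site (RefSeq, GRCm38.p6).
Ciart, chr3:95882240-95882371, minus strand: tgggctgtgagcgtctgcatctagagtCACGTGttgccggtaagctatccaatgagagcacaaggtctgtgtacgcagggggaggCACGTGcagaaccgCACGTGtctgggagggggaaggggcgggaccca
Cry1, chr10:85185082-85185141, minus strand: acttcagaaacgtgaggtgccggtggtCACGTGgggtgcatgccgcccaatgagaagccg
Per1, chr11:69098756-69098815, plus strand: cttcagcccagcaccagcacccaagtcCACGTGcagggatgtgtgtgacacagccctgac
Tef, chr15:81802519-81802578, plus strand: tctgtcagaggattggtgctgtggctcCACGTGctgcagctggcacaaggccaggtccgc
Ciart holds 3 matches, of which the nearest begins 44 bases before the start site, and the other windows shown hold 1 each. Ciart fell, Cry1 rose, and Tef did not pass. The promoter windows, 250 bases before to 50 after each start site, held CACGTG in 8.09% of all 27025 genes, 12.0% of the tested genes with a promoter, 12.1% of those that rose and 13.0% of those that fell by the stricter count given below. Of the 17 core clock genes with an entry, 5 held it, Bhlhe41 besides those shown, while Nr1d1, Nr1d2, Dbp and Hlf held none in this window. The ROR element letters TAGGTCA, on either strand, stood in 2.97% of all genes' windows and 2.60% of those of tested genes. They stood in 4.28% of the windows of genes that rose and 3.80% of those that fell by the same stricter count. Arntl and Nfil3 held 1 match each, and Cry1 and Npas2 held none. Per2 has no entry in the promoter table used. A match is a description of letters and not a bound site.

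**Figure D1:**
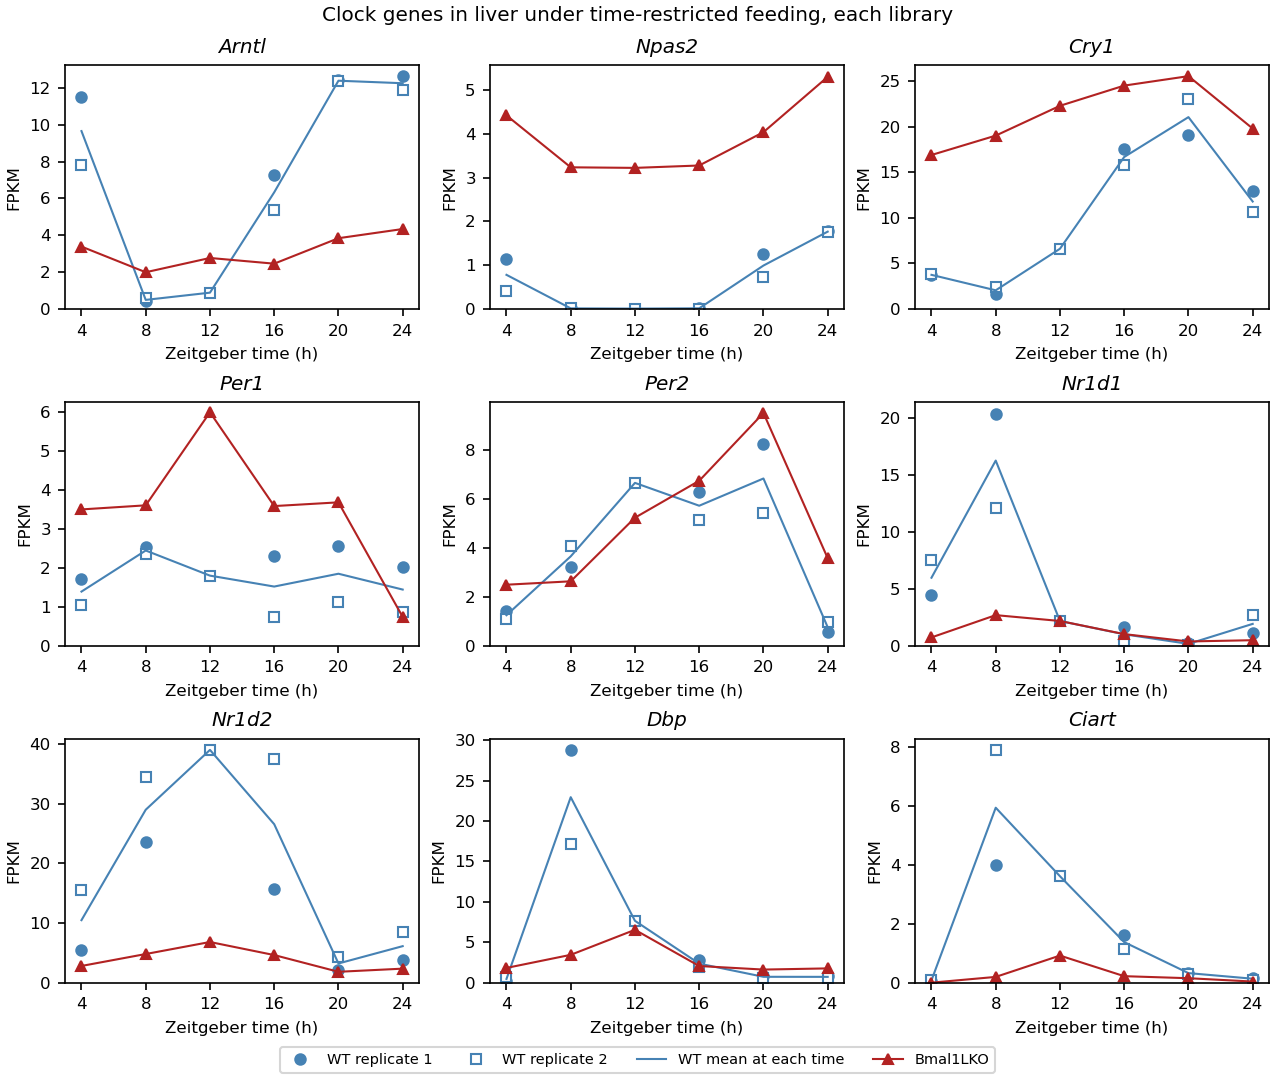
FPKM of 9 clock genes against zeitgeber time in hours under restricted feeding, with each library as a point (WT replicate 1 filled circles, replicate 2 open squares, a line through the WT mean at each time, Bmal1LKO triangles joined by a line). Npas2 and Cry1 stay at 3.22 and 16.9 FPKM or more in Bmal1LKO, while in Nr1d1, Nr1d2, Dbp and Ciart the Bmal1LKO library of ZT8 lies below both WT libraries.

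Rhythm was compared by testing the cosine and sine terms together. The difference between the genotypes passed for 1 gene, 0.0102% of those tested, and 220 genes had an unadjusted p under 0.05. That gene was Cry1, with an amplitude of 1.44 and a peak at 19.2 h in WT and an amplitude of 0.27 in Bmal1LKO (adjusted p = 0.0224). The 220 are fewer than chance alone gives at that threshold, so the small number of calls does not show that rhythms were alike. After the GC and length correction 5 genes passed, in one fit of all groups 13 and with library weights 61. Without the WT libraries holding pancreas transcripts 3 passed. With library weights 1818 genes had an unadjusted p under 0.05, and without those WT libraries 1852 did. Nr1d1 had amplitudes of 1.72 in WT and 0.72 in Bmal1LKO (adjusted p of the difference = 0.998), and Per2 had 1.09 and 0.78.

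Of 22 clock output genes tested, 7 rose and 5 fell (corrected 8 and 5, WT replicate 1 alone 3 and 2), with a median difference of 0.20. Elovl3, which lengthens very long fatty acids, was at 883 to 1340.2 FPKM in Bmal1LKO, with a median of 1079, and 69.2 to 1838 in WT, with a median of 822. At ZT8 and ZT12 WT was at only 69.2 to 176 FPKM while every Bmal1LKO library was at 883 or more, and Elovl3 rose by 1.34 ± 0.28 (adjusted p = 0.00437). Clpx, a mitochondrial chaperone, was at 120.3 to 166 FPKM in Bmal1LKO, with a median of 146, and 23.7 to 173 in WT, with a median of 92.4, its WT lows again at ZT8 and ZT12, and rose by 0.98 ± 0.15 (adjusted p = 5.08e-04). Upp2, a uridine phosphorylase, was at 4.37 to 36.5 FPKM in Bmal1LKO, with a median of 10.4, and 10.8 to 199.6 in WT, with a median of 27.8. The Bmal1LKO library of each time lay below the WT mean of that time, and Upp2 fell by 1.95 ± 0.32 (adjusted p = 7.32e-04). Rgs16, a regulator of G-protein signalling, fell by 2.57 ± 0.47 (adjusted p = 0.00169), from 1.05 to 77.5 FPKM in WT to 0 to 2.95 in Bmal1LKO. Both WT libraries of ZT20 lay within the Bmal1LKO range over all times, though above the Bmal1LKO library of ZT20. The calls of Elovl3 and Upp2 were lost against WT replicate 1 alone (adjusted p = 0.0526 and 0.0514), and that of Elovl3 also with the replicate block and without time terms. Ad libitum these 4 differences were 1.43, 1.21, -1.36 and -2.09.

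Over all genes 1866 rose and 547 fell, of which 1069 and 262 passed after the GC and length correction in the same direction, 11.3% and 2.77% of the 9446 genes with GC content and length. In the ad libitum comparison 9.78% rose and 4.96% fell. These 1331 genes are the stricter count used below for promoters and for GC content and length, and the counts of lists and families are as deposited unless said otherwise. The share of higher genes among those that passed was 77.3%, against 57.9% after median-of-ratios scaling (1344 rose, 976 fell) and 86.9% after scaling to the same sum of FPKM (2222 and 336). Median-of-ratios scaling moved the median of all genes from 0.05 to -0.05. The calls against WT replicate 1 alone were 7.05% in either direction and 2.06% for the falls, in a fit of fewer libraries, and 495 of the 1331 passed there too. The genes that fell had the same sign ad libitum in 227 of 262 (86.6%) and the genes that rose in 423 of 1069 (39.6%), against 39.1% of all tested genes. Of the genes described here as risen or fallen, those that did not pass against WT replicate 1 alone were Acadl, Agpat2, Akr1d1, Alas2, Car3, Cdkn1a, Cirbp, Col3a1, Cry2, Cyp2c37, Cyp2c40, Cyp2c69, Cyp2e1, Cyp3a11, Elovl3, Elovl6, Gbe1, Gckr, H2-Ab1, Haao, Hba-a1, Hba-a2, Igfbp2, Itih3, Mcm2, Mcm6, Nampt, Nmnat3, Nr1h3, Nr1i3, Per1, Qprt, Sgk1, Srebf1, Srebf2, Tdo2, Thrsp and Upp2.

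The greatest falls were those of Ces1 carboxylesterases, Mup genes and single enzymes of the liver. Ces1d, a triglyceride hydrolase of the hepatocyte, was at 6.97 to 54.6 FPKM in Bmal1LKO, with a median of 26.7, and 87.2 to 577 in WT, with a median of 221. The highest Bmal1LKO library, at ZT24, was below the lowest WT library, and Ces1d fell by 3.50 ± 0.24 (adjusted p = 2.68e-07). Its fall ad libitum was less, at -2.36 ± 0.28, and as deposited the 2 differed (adjusted p = 0.0332). All 6 Ces1 genes tested, which lie side by side on chr8:93056728-93337308 (GRCm38), fell, with differences from -3.50 to -0.70, and all 6 also after the correction, against WT replicate 1 alone and ad libitum. Ces1e fell by 2.49 ± 0.17, Ces1g by 2.37 ± 0.24 and Ces1f by 2.33 ± 0.22. No Ces3 gene and 1 of 5 Ces2 genes passed. These families were singled out after their values were seen, and near-identical copies among them, as among the Mup, Gst, Ugt1a, Cyp2c, Cyp3a, Hba and ribosomal protein genes, make single values uncertain because the counting could divide their reads. Whether reads were counted by strand was not given, so the reads of a gene and of one overlapping it on the other strand may not be told apart. This touches Arntl, Rora, Nr1d1, Cry2, Bhlhe40, Dbp, Tef, Csnk1d, Rgs16, Elovl3, Scand1, Cldn3, Romo1, Ccdc85b, Cebpd, Me1, Hsd3b7, Irs2, Fitm1, Ugt1a1, Hspd1, Nags, Junb, Jun, Cdkn1a and Alas2.

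Mup17, a major urinary protein, was at 107 to 1025 FPKM in Bmal1LKO, with a median of 288, and 1294 to 6515 in WT, with a median of 2251. The Bmal1LKO libraries did not overlap WT, with the one at ZT24 the highest, and Mup17 fell by 3.04 ± 0.34 (adjusted p = 4.03e-05). Mup9 fell by 2.68 ± 0.39 and Mup16 by 2.13 ± 0.31. Of 20 Mup genes tested 5 fell and 15 did not pass. After the correction 2 rose and 5 fell, and against WT replicate 1 alone 2 rose and 3 fell. Nat8, an acetyltransferase that makes mercapturic acids, was at 0.708 to 11.2 FPKM in Bmal1LKO, with a median of 1.65, and 11.7 to 42.4 in WT, with a median of 30.6, with the groups apart, and fell by 3.06 ± 0.28 (adjusted p = 4.32e-06). Aldh3a2, which oxidises fatty aldehydes, was at 6.95 to 14.5 FPKM in Bmal1LKO, with a median of 12.98, and 38.1 to 89.5 in WT, with a median of 60.3, and fell by 2.29 ± 0.20 (adjusted p = 3.57e-06). Cyp17a1, a steroid hydroxylase, was at 0.321 to 1.65 FPKM in Bmal1LKO, with a median of 0.779, and 2.92 to 15.6 in WT, with a median of 7.14, and fell by 2.21 ± 0.28 (adjusted p = 1.02e-04). In both of these genes the highest Bmal1LKO library lay below the lowest WT library, and ad libitum the differences were -1.50 and -2.12. The mitochondrial transfer RNA mt-Te was listed at 0 in 4 Bmal1LKO libraries and at no more than 1.23 FPKM in the others, against 2.40 to 21.6 in WT, and fell by 2.97 ± 0.34 (adjusted p = 4.83e-05). Ad libitum its difference was 0.35 ± 0.35, and the 2 differed (adjusted p = 6.04e-05). Of 9 mitochondrial transfer RNAs 6 fell as deposited, 3 both as deposited and corrected and 2 against WT replicate 1 alone, while ad libitum 3 were higher. Of 7 mitochondrial messenger RNAs 5 fell as deposited, 4 of them also corrected, and 0 against WT replicate 1 alone.

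**Figure D2:**
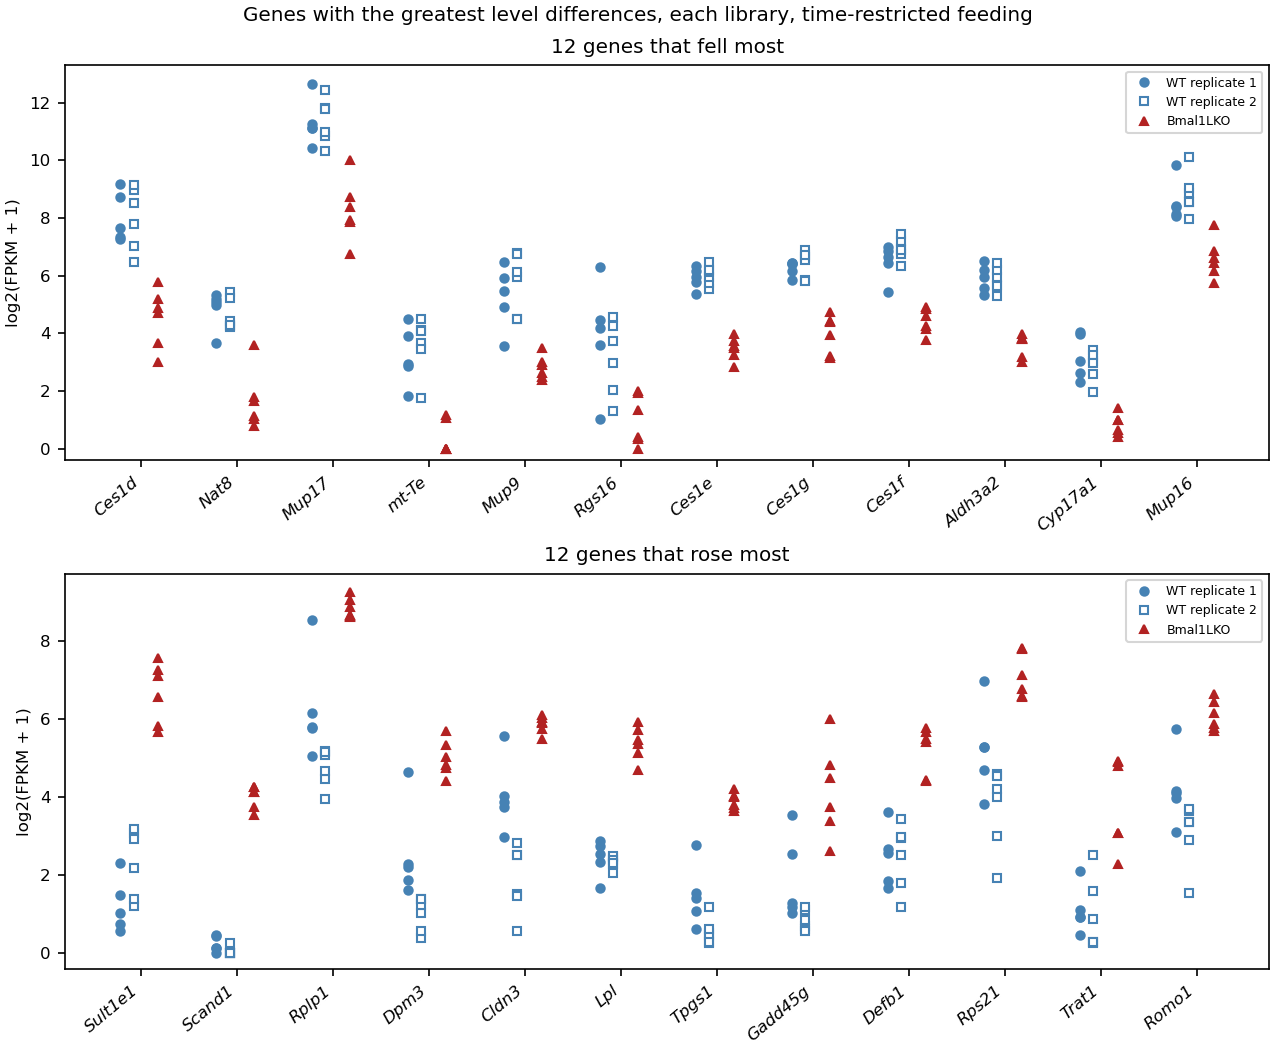
log2(FPKM + 1) of the 12 genes that fell most (top) and the 12 that rose most (bottom) in each restricted-feeding library, with WT replicate 1 as filled circles, WT replicate 2 as open squares and Bmal1LKO as triangles. Ces1d, Mup17 and Nat8 separate from both WT replicates. For Dpm3, Cldn3, Rps21 and Romo1 the highest WT replicate 1 point, that of ZT24, lies within the Bmal1LKO range, and for Rplp1 just below it.

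Drug and toxin metabolism was the list with the most members that fell, 12 of 20 tested and 0 that rose, with a median difference of -0.61 against 0.05 over all genes. After the correction 12 also fell, against WT replicate 1 alone 7, ad libitum 11, and 10 fell both as deposited and corrected. Cyp2a5, a coumarin and nicotine hydroxylase, was at 10.1 to 47.7 FPKM in Bmal1LKO, with a median of 26.8, and 31.1 to 247 in WT, with a median of 84.1. WT was highest from ZT8 to ZT16, the Bmal1LKO library of every time lay below the WT mean, and Cyp2a5 fell by 2.02 ± 0.23 (adjusted p = 4.20e-05). Ugt1a1, which conjugates bilirubin, was at 19.1 to 31.4 FPKM in Bmal1LKO, with a median of 22.4, and 48.8 to 126 in WT, with a median of 81.02. The groups did not overlap, and Ugt1a1 fell by 1.71 ± 0.15 (adjusted p = 3.70e-06). Gsta3, a glutathione transferase, fell by 1.42 ± 0.21 (adjusted p = 3.12e-04), and Sult1a1, a phenol sulfotransferase, by 1.40 ± 0.12 (adjusted p = 3.55e-06). The ad libitum differences of these 4 were -1.98, -1.23, -0.78 and -1.17.

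Among the cytochrome P450 genes, Cyp3a11 fell by 1.38 ± 0.32, Cyp3a13 by 0.88 ± 0.13 and Cyp2e1 by 0.56 ± 0.12. Of 12 Cyp2c genes 3 rose, Cyp2c40, Cyp2c55 and Cyp2c69, and 3 fell, of which 3 and 0 also passed corrected, and ad libitum 5 were higher and 0 lower. Cyp2c40 kept its call in 13 of 17 fits without 1 library, and Cyp2c69 in 6 of 17. The 7 Ugt2b genes tested did not pass, with differences from -0.42 to 0.62. The nuclear receptor gene Nr1i3 (CAR), which drives many of these enzymes, fell by 0.66 ± 0.21 (adjusted p = 0.0322), while Nr1i2 (PXR) did not pass at -0.25 ± 0.16 (adjusted p = 0.278). Por, the electron donor of the P450 enzymes, did not pass as deposited at -0.75 ± 0.36 (adjusted p = 0.149), and after the correction its difference was -1.20 (adjusted p = 0.00572). All 4 Ugt1a genes tested fell as deposited, as did all 3 Gsta genes, whereas 5 of 7 Gstm genes rose and none fell. Both as deposited and corrected 3 Ugt1a and 2 Gsta genes fell and 4 Gstm genes rose, the same numbers as against WT replicate 1 alone. In the ad libitum comparison 1 Ugt1a and 2 Gsta genes were lower and 4 Gstm genes higher. Gstm3 was at 45.96 to 74.8 FPKM in Bmal1LKO, with a median of 55.1, and 6.82 to 31.2 in WT, with a median of 9.69, with the groups apart, and rose by 2.21 ± 0.20 (adjusted p = 3.55e-06), and Gstm2 rose by 2.00 ± 0.18. Ad libitum they were higher by 2.56 and 2.20. In bulk RNA fewer cells expressing a gene and less RNA per cell cannot be told apart.

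**Figure D3:**
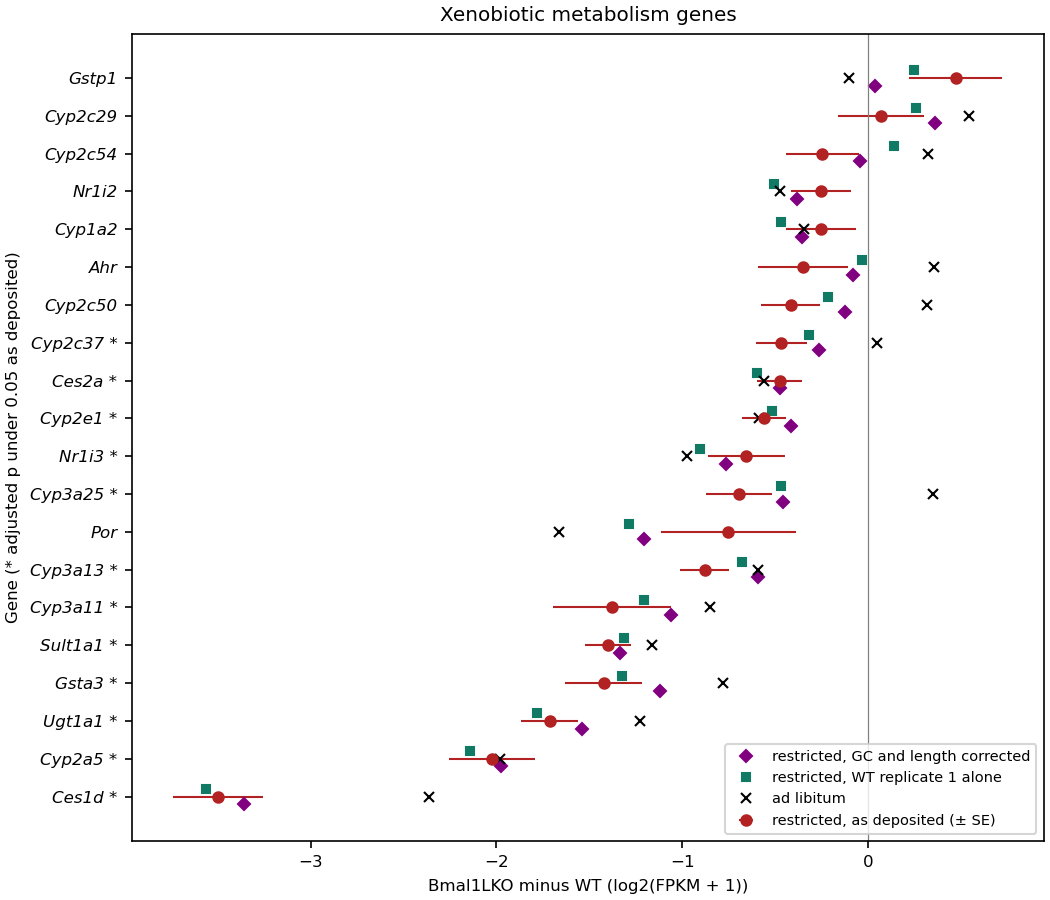
Log2 difference Bmal1LKO minus WT for the 20 xenobiotic metabolism genes tested, as deposited with SE (circles), after GC and length correction (diamonds), against WT replicate 1 alone (squares) and ad libitum (crosses). The 12 members marked with an asterisk passed, and all 12 lie below 0, from -3.50 for Ces1d to -0.47 for Cyp2c37.

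D-box letters stood in the promoter windows of 15 of the 184 fallen genes with an entry (8.15%), against 2.07% of tested genes, 1.59% of the genes that rose and 2.72% of all genes. The motif searched was TTANGTAA, on both strands. Windows of fallen liver enzymes and of albumin are shown with the motif in capitals (RefSeq, GRCm38.p6, 5′ to 3′), as the genes in which the falls and these letters met.
Alb, chr5:90460620-90460700, plus strand: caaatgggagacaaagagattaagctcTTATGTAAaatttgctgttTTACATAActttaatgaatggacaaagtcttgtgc
Ces1e, chr8:93229666-93229802, minus strand: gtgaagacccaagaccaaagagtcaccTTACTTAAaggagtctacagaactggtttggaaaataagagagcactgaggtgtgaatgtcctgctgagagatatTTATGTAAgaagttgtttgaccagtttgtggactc
Ces1g, chr8:93337407-93337459, minus strand: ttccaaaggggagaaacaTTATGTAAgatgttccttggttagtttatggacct
Ces1b, chr8:93079990-93080051, minus strand: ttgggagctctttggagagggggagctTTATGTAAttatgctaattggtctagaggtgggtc
Sult1a1, chr7:126676581-126676642, minus strand: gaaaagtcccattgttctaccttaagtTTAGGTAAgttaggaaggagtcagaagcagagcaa
Ugt1a9, chr1:88070650-88070711, plus strand: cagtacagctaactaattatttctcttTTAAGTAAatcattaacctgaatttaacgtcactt
Among the others of the 15 were Ces1c, Ak4, As3mt, Gde1, Homer2, Prnp and Slc16a12. These genes were chosen for display after their values were seen. No match before a start site was found for Ces1d, Rgs16 or Upp2, for want of either the letters or an entry. Median GC content was 48.5% in the genes that fell, 49.5% in tested genes and 54.5% in those that rose. The shares with D-box letters were not adjusted for it. The 4 Ces1 genes are neighbours with related sequence and are not independent of each other. Alb fell by 1.67 ± 0.12 (adjusted p = 3.08e-07), from 28788 to 43386 FPKM in WT to 9590.3 to 15719 in Bmal1LKO, with the groups apart, and by 0.92 ± 0.14 ad libitum, and the 2 differed (adjusted p = 0.00727). Ugt1a9 fell by 1.46 ± 0.17 and Ces1b by 1.89 ± 0.19. The level of Dbp itself did not pass, as given above.

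Of the 12 genes that rose most, 3 had a like difference ad libitum and 7 had a negative one. Sult1e1, which sulfates and so inactivates oestrogen, was at 49.6 to 188 FPKM in Bmal1LKO, with a median of 114, and 0.467 to 8.02 in WT, with a median of 1.82. Every Bmal1LKO library was above every WT library, and Sult1e1 rose by 4.83 ± 0.41 (adjusted p = 2.40e-06), with 4.93 ± 0.40 ad libitum. Lpl, the lipase that takes up triglyceride from blood and is low in adult liver, was at 24.7 to 59.4 FPKM in Bmal1LKO, with a median of 41.4, and 2.18 to 6.29 in WT, with a median of 4.22. Lpl rose by 3.01 ± 0.13 (adjusted p = 2.54e-09), again without overlap, with 3.33 ± 0.17 ad libitum. Defb1, an antimicrobial defensin, was at 20.3 to 52.8 FPKM in Bmal1LKO, with a median of 42.5, and 1.26 to 11.2 in WT, with a median of 4.90, also without overlap. Defb1 rose by 2.79 ± 0.30 (adjusted p = 2.24e-05), with 2.57 ± 0.37 ad libitum. Dependence on feeding did not pass for these 3, with restricted minus ad libitum differences of -0.10, -0.33 and 0.22 ± 0.58, 0.24 and 0.53. Trat1, an adaptor known from T cells, was at 3.88 to 29.2 FPKM in Bmal1LKO, with a median of 17.01, and 0.199 to 4.66 in WT, with a median of 0.887, and rose by 2.76 ± 0.40 (adjusted p = 2.91e-04), with only the Bmal1LKO library of ZT12 below the highest WT library. Gadd45g, a stress-induced growth inhibitor, rose by 2.86 ± 0.41 (adjusted p = 2.49e-04), with its highest Bmal1LKO library at ZT16. Both were less different ad libitum, at 0.76 (adjusted p of the difference = 0.00374) and 0.47 (adjusted p = 0.00478).

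The other 7 of the 12, Scand1, Rplp1, Dpm3, Cldn3, Tpgs1, Rps21 and Romo1, rose by 2.56 to 3.88 and had ad libitum differences of -0.67 to -0.04. Scand1, which encodes a SCAN-domain protein, was at 10.6 to 18.2 FPKM in Bmal1LKO and listed at 0 in 6 of 11 WT libraries, with at most 0.367 in the others. Rplp1, a protein of the ribosome stalk, was at 387 to 606 FPKM in Bmal1LKO, with a median of 433, and 14.4 to 370.4 in WT, with a median of 34.2. The highest WT value was that of replicate 1 at ZT24, and the 10 others were at most 70.1 FPKM. Rplp1 rose by 3.49 ± 0.44 (adjusted p = 1.05e-04), by 2.86 after the correction and by 2.82 against WT replicate 1 alone. Of 62 ribosomal protein genes tested 29 rose and 1 fell, with 10 and 0 against WT replicate 1 alone and 2 and 0 ad libitum. The median of these genes was 0.76 as deposited, 0.66 corrected and -0.04 ad libitum.

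GC content and length moved with these differences. The 702 genes that rose by the stricter count and whose difference depended on feeding had a median GC content of 56.1% and a median exon length of 2813 bases. The 367 whose dependence on feeding did not pass had 51.0% and 3559 bases, and all tested genes 49.5% and 4080 bases. Over all genes feeding dependence passed for 2938 of 9825 (29.9%) as deposited and for 880 of 9446 (9.32%) after the correction. The p-values for feeding dependence of single genes are as deposited unless said to be corrected, so a call may not hold after the correction. The GC slope of the WT libraries also differed by feeding, at 0.43 to 0.88 ad libitum against -0.79 to 0.52 under restriction, while Bmal1LKO had 0.24 to 0.45 ad libitum and 0.24 to 0.40 under restriction. After the correction the restricted minus ad libitum difference was 2.07 for Scand1 (adjusted p = 5.71e-08), 2.75 for Rplp1 (adjusted p = 1.71e-06) and 2.01 for Cldn3 (adjusted p = 4.59e-04). The signal of mt-Nd6, which is encoded on the other strand of the mitochondrial genome than mt-Nd5, was 0.55 to 3.06% of that of mt-Nd5 in WT ad libitum and 5.87 to 35.8% in WT under restriction. In Bmal1LKO it was 8.61 to 13.02% ad libitum and 8.36 to 16.3% under restriction, so this library measure ran with genotype ad libitum and with feeding in WT. The part of library preparation in the ad libitum and feeding differences was not tested. Without the WT replicate 1 library of ZT24, whose mt-Nd6 signal was the 35.8% against 5.87 to 15.7% in the other restricted WT libraries, 2190 genes rose and 725 fell.

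**Figure D4:**
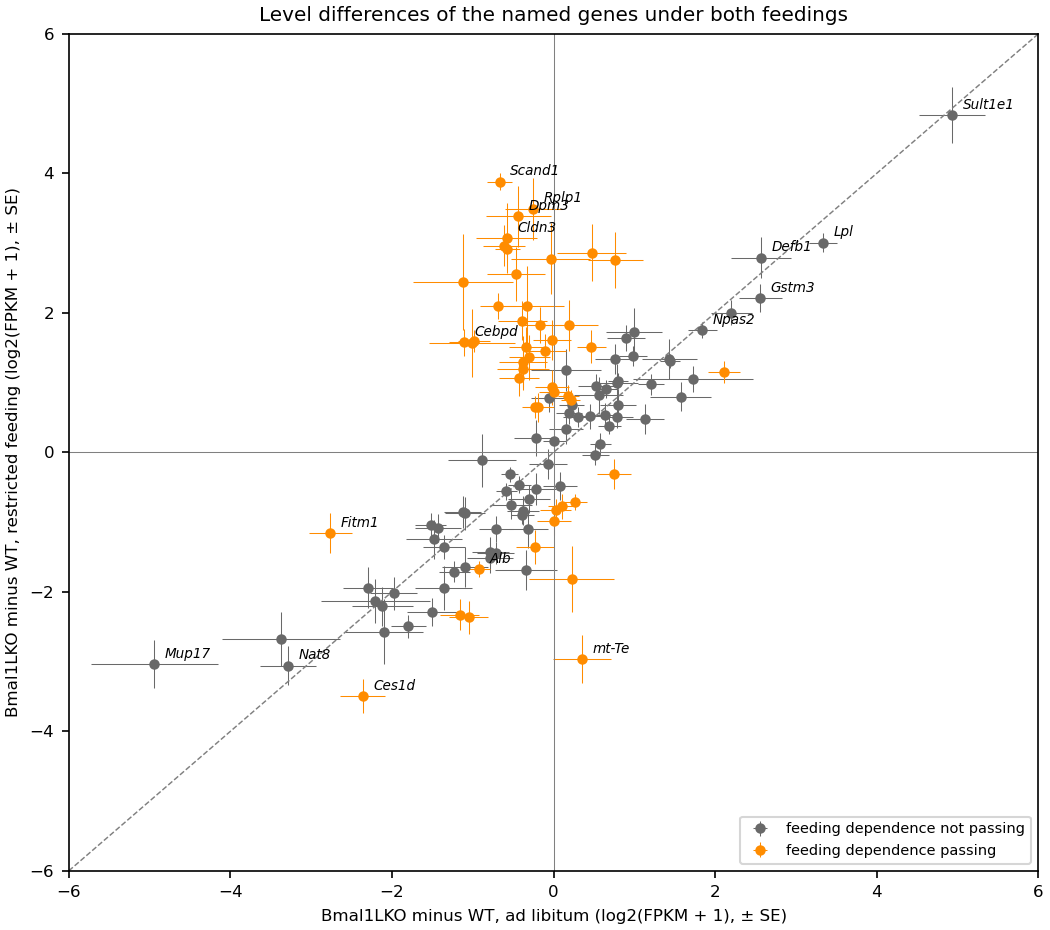
Log2 difference Bmal1LKO minus WT of the 119 genes that the naming rule chose under restricted feeding (y axis) against ad libitum feeding (x axis), with SE bars, the dashed line marking equal differences and orange points those whose dependence on feeding passed. Sult1e1, Lpl, Defb1 and Nat8 lie near the line, and Scand1, Rplp1, Dpm3 and Cldn3 lie high under restriction only.

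The genes with the smallest p for feeding dependence were Scand1, Ccdc85b, Cebpd, Tpgs1, Tmem238 and Zfp771, each higher in Bmal1LKO under restriction, by 1.58 to 3.88, and with ad libitum differences of -1.11 to -0.57. Cebpd, a transcription factor of the acute phase and fat cell formation, was at 4.19 to 6.60 FPKM in Bmal1LKO, with a median of 6.24, and 0.556 to 3.09 in WT, with a median of 1.10. It rose by 1.58 ± 0.19 under restriction (adjusted p = 8.29e-05) and was -1.11 ± 0.18 ad libitum, a difference between feedings of 2.68 ± 0.26 (adjusted p = 2.04e-07). Fitm1, which helps to form lipid droplets, fell less under restriction than ad libitum. It fell by 1.16 ± 0.29 under restriction (adjusted p = 0.0102), from 5.74 to 28.8 FPKM in WT to 2.46 to 8.64 in Bmal1LKO, and by 2.76 ± 0.27 ad libitum, and the 2 differed (adjusted p = 0.00316).

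Fat synthesis genes passed in both directions. Of 19 tested, 3 rose and 5 fell (corrected 2 and 9, WT replicate 1 alone 0 and 4), with a median of -0.18. Scd1, which makes monounsaturated fatty acids, was at 60.7 to 191 FPKM in Bmal1LKO, with a median of 102, and 45.8 to 1072 in WT, with a median of 427. The lowest WT library, that of ZT24 replicate 1, lay below all Bmal1LKO libraries, and the other WT libraries reached up to 1072. Scd1 fell by 1.82 ± 0.47 (adjusted p = 0.0131), a call lost without the Bmal1LKO library of ZT20 and with the replicate block, and its ad libitum difference was 0.22 ± 0.52. Me1, a source of NADPH, was at 1.27 to 3.21 FPKM in Bmal1LKO, with a median of 2.39, and 3.31 to 19.6 in WT, with a median of 8.73, without overlap, and fell by 1.69 ± 0.28 (adjusted p = 9.44e-04). Thrsp, a lipogenic factor, fell by 1.24 ± 0.28 (adjusted p = 0.00594), Fads1, a desaturase, by 1.19 ± 0.14 (adjusted p = 4.94e-05) and Elovl6, an elongase, by 0.97 ± 0.19 (adjusted p = 0.00245). Fasn, the fatty acid synthase, did not pass at 0.57 ± 0.41 (adjusted p = 0.343). Nr1h3 (LXR alpha) and Agpat2 rose by 1.20 ± 0.31 and 1.00 ± 0.24, and Srebf1 by 1.14 ± 0.36, which after the correction was 0.48 (adjusted p = 0.185).

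Of 24 cholesterol synthesis genes 4 rose and 0 fell (corrected 5 and 0, WT replicate 1 alone 3 and 0), with a median of 0.18, against 19.0% and 5.57% of all tested genes. Mvd and Mvk, of the mevalonate pathway, rose by 1.82 ± 0.37 (adjusted p = 0.00347) and 1.45 ± 0.25 (adjusted p = 0.00102), and Srebf2, the regulator of the pathway, by 0.77 ± 0.19 (adjusted p = 0.0109), which against WT replicate 1 alone was 0.44 (adjusted p = 0.156). Mvd was highest in Bmal1LKO at ZT20, with 40.2 FPKM against 7.55 and 1.24 in WT, while at ZT4 it lay below both WT libraries. Of 20 bile acid genes 2 rose and 3 fell (corrected 2 and 1, WT replicate 1 alone 2 and 1). Cyp7b1, of the alternative bile acid pathway, rose by 0.80 ± 0.21 (adjusted p = 0.0152) and Hsd3b7 by 0.86 ± 0.18 (adjusted p = 0.00406), and Akr1d1, the steroid 5β-reductase, fell by 1.36 ± 0.25 (adjusted p = 0.00159). Cyp7a1, which opens the classic bile acid pathway, did not pass, at 0.03 ± 0.41 (adjusted p = 0.965).

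Of 26 fatty acid oxidation genes 0 rose and 3 fell (corrected 2 and 5, WT replicate 1 alone 0 and 4), with a median of -0.29. Cpt1a, which brings fatty acids into mitochondria, was at 21.3 to 80.9 FPKM in Bmal1LKO, with a median of 51.00, and 32.4 to 124 in WT, with a median of 72.1, and fell by 0.67 ± 0.20 (adjusted p = 0.0245), a call lost without the Bmal1LKO library of ZT8 or of ZT20. Acadl, of mitochondrial oxidation, fell by 0.46 ± 0.12 (adjusted p = 0.0152), lost without that of ZT12. Among lipid droplet and uptake genes 3 of 17 rose and 2 fell (corrected 3 and 3, WT replicate 1 alone 2 and 3). Without the 2 WT libraries holding pancreas transcripts 10 of the 17 rose and 2 fell, against 2971 and 1137 of all 9825 genes. Without the WT library of ZT24 replicate 1, 2 fatty acid oxidation genes rose and 5 fell, and 6 lipid droplet and uptake genes rose and 2 fell. In that fit 2190 of all 9825 genes rose and 725 fell. Lipc, hepatic lipase, rose with Lpl, by 0.91 ± 0.13 (adjusted p = 2.75e-04), from 37.7 to 81.4 FPKM in WT to 88.95 to 149 in Bmal1LKO. Plin2, the coat protein of lipid droplets, did not pass, at 0.30 ± 0.28 (adjusted p = 0.470).

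Of 20 glucose and glycogen genes 2 rose and 3 fell (corrected 5 and 3, WT replicate 1 alone 1 and 2), the latter for glycogen synthesis and glucose transport. Gys2, liver glycogen synthase, was at 25.3 to 47.4 FPKM in Bmal1LKO, with a median of 35.5, and 36.01 to 141 in WT, with a median of 53.8. Every WT library from ZT8 to ZT20 lay above the highest Bmal1LKO library, and Gys2 fell by 0.89 ± 0.13 (adjusted p = 2.49e-04). Slc2a2, the glucose transporter GLUT2, fell by 0.99 ± 0.20 (adjusted p = 0.00374), and Gbe1, the glycogen branching enzyme, by 0.77 ± 0.18 (adjusted p = 0.00713). Irs2, an insulin receptor substrate, was at 2.70 to 6.84 FPKM in Bmal1LKO, with a median of 3.44, and 0.128 to 1.24 in WT, with a median of 0.453. The groups did not overlap, and Irs2 rose by 1.64 ± 0.19 (adjusted p = 4.86e-05), with 0.90 ad libitum. Gckr, the inhibitor of glucokinase, rose by 0.49 ± 0.11 (adjusted p = 0.00719), and the other 15 of 20 members did not pass, among them Pck1 and G6pc of gluconeogenesis at 0.05 ± 0.28 and 0.35 ± 0.19.

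Amino acid breakdown genes rose in 7 of 25 and fell in 1 (corrected 7 and 1, WT replicate 1 alone 4 and 0), against 19.0% and 5.57% of all tested genes. Agxt, which handles glyoxylate, was at 221 to 392 FPKM in Bmal1LKO, with a median of 292, and 42.9 to 300.1 in WT, with a median of 131, with only the WT library of ZT24 replicate 1 within the Bmal1LKO range, and rose by 1.51 ± 0.23 (adjusted p = 4.69e-04). Sdsl, a serine dehydratase, rose by 1.82 ± 0.26 (adjusted p = 2.49e-04) without overlap, though the WT library of ZT24 replicate 1 came near at 6.96 FPKM against 7.23 in the lowest Bmal1LKO library. Nags, which makes the activator of the urea cycle, rose by 1.51 ± 0.29 (adjusted p = 0.00234), and Cbs, of the methionine pathway, by 1.29 ± 0.28 (adjusted p = 0.00474). Tdo2, which opens tryptophan breakdown, was at 341 to 575 FPKM in Bmal1LKO, with a median of 442, and 477 to 1144 in WT, with a median of 778, and fell by 0.83 ± 0.17 (adjusted p = 0.00333). Dependence on feeding passed for 11 of the 25, against 29.9% of all tested genes. Of 16 NAD genes 5 rose and 3 fell (corrected 7 and 2, WT replicate 1 alone 0 and 0). Nampt, the salvage enzyme of NAD synthesis, fell by 0.73 ± 0.23 (adjusted p = 0.0338), which after the correction was -0.41 (adjusted p = 0.0597). Nmnat3 rose by 0.76 ± 0.13, and Haao and Qprt, of the route from tryptophan, by 1.07 ± 0.26 and 0.64 ± 0.16.

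Stress and inflammation lists gave mixed counts. Of 21 acute phase genes 4 rose and 2 fell (corrected 6 and 2, WT replicate 1 alone 1 and 2). Orm3, an acid glycoprotein, was at 1.05 to 6.17 FPKM in Bmal1LKO, with a median of 2.41, and 5.97 to 28.04 in WT, with a median of 11.9, and fell by 1.94 ± 0.29 (adjusted p = 4.30e-04), and Saa4 fell by 1.04 ± 0.17 (adjusted p = 7.09e-04). Apcs and Itih3 rose by 0.82 ± 0.27 and 0.51 ± 0.14, calls lost in 11 and 2 of 17 fits without 1 library. After median-of-ratios scaling no member of the list rose, against 1344 of all 9825 genes. Of 21 ER stress and amino acid response genes 1 rose and 5 fell (corrected 0 and 3, WT replicate 1 alone 0 and 2). Without the WT libraries holding pancreas transcripts 5 rose and 5 fell, against 2971 and 1137 of all 9825 genes. Asns, asparagine synthetase, was at 0.395 to 1.25 FPKM in Bmal1LKO, with a median of 0.487, and 1.25 to 5.63 in WT, with a median of 3.55. The groups did not overlap, and Asns fell by 1.45 ± 0.16 (adjusted p = 2.76e-05), while Herpud1, of ER protein degradation, fell by 1.09 ± 0.20 (adjusted p = 0.00159). Hspa5, the main ER chaperone, did not pass at -0.64 ± 0.31 (adjusted p = 0.146).

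Of 14 heat shock and cold-inducible genes 2 rose and 3 fell (corrected 2 and 3, WT replicate 1 alone 0 and 1), among them the mitochondrial chaperone Hspd1, which fell by 0.71 ± 0.12 (adjusted p = 7.76e-04), and cold-induced Cirbp, which rose by 0.81 ± 0.15 (adjusted p = 0.00174). Of 17 oxidative stress genes 4 rose and 2 fell (corrected 2 and 1, WT replicate 1 alone 2 and 1). Without the WT library of ZT24 replicate 1, 5 rose and 5 fell, against 2190 and 725 of all 9825 genes. Gsta4 fell by 1.36 ± 0.17 (adjusted p = 1.01e-04), and Nqo1, a standard Nrf2 target, did not pass at -0.38 ± 0.19 (adjusted p = 0.175). Immediate early genes rose in 5 of 9 and fell in 0 (corrected 4 and 0, WT replicate 1 alone 4 and 0), with a median of 0.88. Junb was at 3.35 to 7.59 FPKM in Bmal1LKO, with a median of 4.30, and 0.102 to 3.99 in WT, with a median of 0.279, with only the WT library of ZT24 replicate 1 within the Bmal1LKO range, and rose by 1.89 ± 0.28 (adjusted p = 3.93e-04). After the correction its difference was 0.76, and ad libitum -0.39 (adjusted p of the difference = 5.80e-04). Nr4a1 rose by 1.15 ± 0.15 under restriction and was 2.11 ± 0.20 ad libitum, and Jun rose by 0.95 ± 0.16. Of 12 glucocorticoid targets Fkbp5 fell by 1.10 ± 0.19 (adjusted p = 0.00110), and Gadd45g and Sgk1 rose, the latter with its call lost without the Bmal1LKO library of ZT8, ZT12 or ZT20. Cdkn1a, a cell cycle inhibitor, was at 12.4 to 56.4 FPKM in Bmal1LKO, with a median of 46.8, and 1.54 to 54.6 in WT, with a median of 19.1. WT was lowest at ZT8 to ZT16, and Cdkn1a rose by 1.72 ± 0.34 (adjusted p = 0.00291), a call lost without time terms, with times as categories and against WT replicate 1 alone. The replication genes Mcm2 and Mcm6 rose by 0.68 ± 0.13 and 0.38 ± 0.12, the latter with Bmal1LKO above both WT libraries only at ZT4, ZT20 and ZT24 and its call lost in 5 of 17 fits without 1 library, and Mki67, Top2a and Cdk1 lay below 1 FPKM. Of 8 cell cycle genes tested 3 rose and 0 fell (corrected 4 and 1, WT replicate 1 alone 0 and 0).

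Genes that differ between the sexes in liver did not move one way. Of 19 male-biased genes 5 rose and 2 fell (corrected 9 and 2, WT replicate 1 alone 3 and 2). Moxd1 was at 87.3 to 138 FPKM in Bmal1LKO, with a median of 113, and 25.7 to 85.9 in WT, with a median of 59.5, with all Bmal1LKO libraries above all WT libraries, and rose by 1.05 ± 0.18 (adjusted p = 0.00123), and Cyp4a12a, a fatty acid hydroxylase, fell by 1.52 ± 0.22 (adjusted p = 2.49e-04). Of the 18 female-biased genes 6 reached 1 FPKM, of which 2 rose and 3 fell (corrected 2 and 1, WT replicate 1 alone 0 and 2). The 2 that rose were Cyp2c40 and Cyp2c69, already counted among the Cyp2c genes above. Among 13 growth hormone and STAT5 genes 4 rose and 1 fell (corrected 5 and 0, WT replicate 1 alone 1 and 0). Igfbp2, a carrier of insulin-like growth factors, was at 138 to 329 FPKM in Bmal1LKO, with a median of 250.1, and 15.8 to 584 in WT, with a median of 43.4, with the WT library of ZT24 replicate 1 above every other library, and rose by 2.09 ± 0.57 (adjusted p = 0.0162). That call was lost without the Bmal1LKO library of ZT20 and against WT replicate 1 alone (adjusted p = 0.209).

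The tissue was checked against cell markers. Of the marker lists, hepatocyte markers were the most abundant, with a summed level of 40070.3 to 53041 FPKM in Bmal1LKO and 55651 to 80336 in WT. Of 10 tested 0 rose and 2 fell, Alb and Cyp2e1. The median difference of the 10 was 0.04, and the sum includes Alb, whose FPKM are given above. Without the WT library of ZT24 replicate 1, 3 hepatocyte markers rose and 2 fell, against 2190 and 725 of all 9825 genes. Immune cell markers summed to 407 to 772 FPKM in Bmal1LKO and 257 to 686 in WT (1 of 13 rose, H2-Ab1, and 0 corrected), stellate cell and matrix markers to 159 to 194 and 158 to 295 (1 of 7 rose), and endothelial markers to 76.7 to 97.1 and 58.2 to 108 (3 of 12 rose, 1 fell). The riser among stellate cell markers, Col3a1, lost its call in 10 of 17 fits without 1 library, and with WT replicate 1 alone or with the replicate block no stellate cell or endothelial marker passed (limma). Bile duct markers rose in both members tested. Sox9 was at 1.90 to 5.74 FPKM in Bmal1LKO, with a median of 4.34, and 0.679 to 2.31 in WT, with a median of 1.51, and rose by 1.02 ± 0.12 (adjusted p = 4.44e-05), and Spp1 (osteopontin) rose by 1.33 ± 0.22 (adjusted p = 7.71e-04), while Krt7, Krt19, Epcam and Cftr lay below 1 FPKM. Of 3 adipocyte markers tested Car3 fell, and Adipoq and Retn lay below 1 FPKM. Of the 5 erythroid markers Hba-a1 and Hba-a2 rose and Alas2 fell. The call of Alas2 was lost in 15 of 17 fits without 1 library, and that of Hba-a1 without the Bmal1LKO library of ZT8, ZT16 or ZT24. Hba-a2 did not pass after the correction, none of the 5 passed against WT replicate 1 alone (limma), and with the WT library of ZT24 replicate 1 left out 3 rose and 0 fell. Pancreas markers passed in 0 of 15. Their sum was 73.0 to 152 FPKM in Bmal1LKO and 17.7 to 89.7 in WT except ZT16, where the replicates had 1884 and 299.9. What these cells contribute to the differences was not tested.

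**Figure D5:**
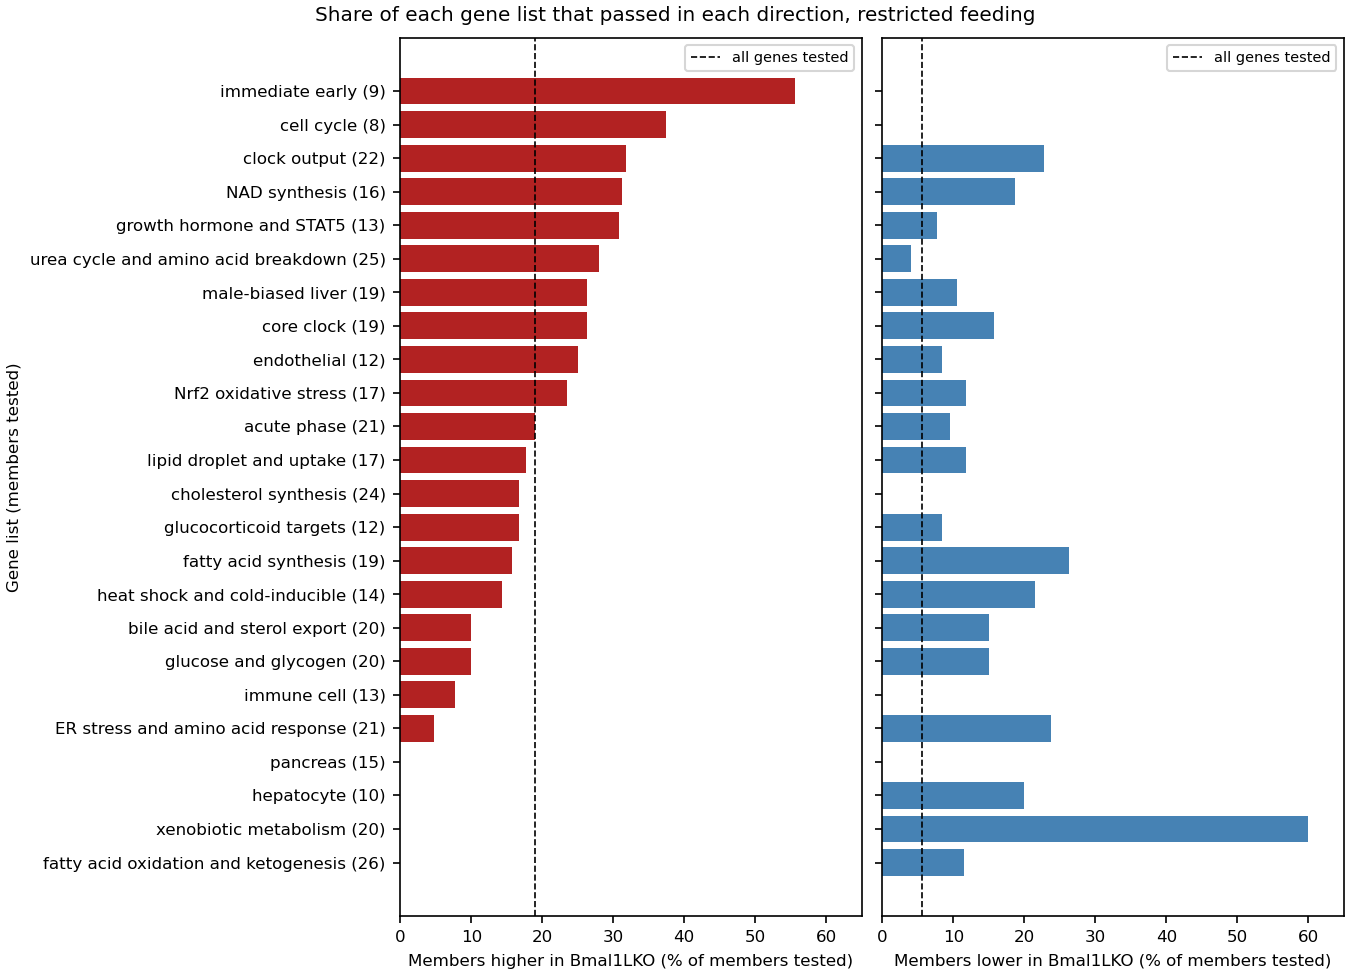
Share of the tested members of each gene list that were higher (left) or lower (right) in Bmal1LKO, in percent, for lists with at least 8 members tested, with the dashed lines at the shares of all genes tested (19.0% and 5.57%). Xenobiotic metabolism has 12 of 20 members lower and 0 higher, and the immediate early genes 5 of 9 higher and 0 lower.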

How the data were processed

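Poly(A) RNA of liver was sequenced from stranded mRNA libraries, per the labels' protocols. The deposited values are FPKM per gene, made by the authors with STAR, featureCounts and DESeq2 on GRCm38, per the submitters' processing notes, which give no versions. The sources used here do not say how these tools were set, nor whether counting used strand. The table held 45808 gene rows, of which 27 carried symbols turned into dates and 41893 matched 1 gene of the GRCm38 annotation. All 67 sample columns matched a label.

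The members and gene lists were chosen with earlier results of these data known. The 9825 genes averaging 1 FPKM or more in the 17 libraries were fitted as log2(FPKM + 1) with limma 3.58.1 in R 4.3.3. Each genotype had its level and a cosine and sine of 24 h, with 11 residual degrees of freedom, and p-values were Benjamini-Hochberg adjusted over all 9825 genes. The fit was tested on simulated data with no difference by replicate number and no library standing apart, so that test does not cover these. Dependence on feeding was tested in 35 libraries with 4 such groups. The correction removed from each library's log2 values a spline of GC content and of exon length (5 degrees of freedom each), for 9446 genes. Low values fell on whole multiples of 1 read for 84.7 to 86.7% of genes per restricted library, which gave reads for limma voom as an alternative.

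Named genes were the core clock list, the 12 genes that rose and the 12 that fell most among those averaging 5 FPKM or more that passed as deposited and corrected and lay on that side of WT at 6 of 6 times, up to 4 such passing members of each list, and the top genes of the rhythm (8) and feeding (6) tests that passed corrected. Predicted genes were only counted, and some genes that entered the fits and counts are not reported here. WT and Bmal1LKO share only replicate number 1, so the numbers could not be checked for pairing across genotypes. Other alternatives changed the pseudocount, filter, scaling, time terms, library weights and libraries used.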

Additional observations from a re-analysis of the deposited data

Results flagged for a closer look

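In 127 genes and library measures examined, the highest or lowest of the 6 Bmal1LKO libraries stood apart from the others in 11, each time the highest. Chance marks about 1 in 20 groups of normally distributed values, a rate that need not hold for FPKM, which were taken here without logs. These libraries also differ in time of day, so a high value may be that of its time. At ZT12 the highest library had 0.918 FPKM of Ciart, 6.54 of Dbp, 36.5 of Upp2 and 114 of Sds, a serine dehydratase. At ZT24 it had 11.2 FPKM of Nat8, 1025 of Mup17, 11.3 of Srebf2 and 1.25 of Asns. At ZT16 it had 6.84 FPKM of Irs2 and 11.1 of Cish, a feedback inhibitor of cytokine signalling, and at ZT20 35.4 of Nags.

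The difference from WT depended on feeding, by the test of that difference, most firmly in 6 of the named genes, those with the smallest p. Restricted minus ad libitum and as deposited, it was 4.55 for Scand1, 3.58 for Tpgs1, 3.49 for Ccdc85b, 2.68 for Cebpd, 2.79 for Zfp771 and 2.58 for Tmem238, with adjusted p from 8.51e-14 to 1.28e-06 (limma). After the GC and length correction the value of Scand1 was smaller, as given above. All 6 were higher in Bmal1LKO under restriction and lower ad libitum in the fitted values.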

How the results depend on the processing

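Of the 119 genes that the naming rule chose none changed direction after passing. Of the 108 that passed, 86 also passed without each of the 17 libraries in turn, and 61 of those under the other 18 settings wherever they could be fitted. The counts moved far more than the directions, as follows for genes higher, genes lower, genes differing in rhythm and genes depending on feeding, against 1866, 547, 1 and 2938. The cause of these shifts was not tested, and some settings also used fewer genes or libraries.

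A pseudocount of 0.1 left 0 rhythm differences (217 at an unadjusted p under 0.05), and no filter gave 7. Median-of-ratios scaling gave 976 lower and 3 in rhythm, and scaling to the same sum 336 lower and 0 in rhythm (209 unadjusted). The GC and length correction gave 5 in rhythm and 880 depending on feeding. Library weights gave 3688, 2033, 61 and 5555. One fit of all groups gave 1126 lower and 13 in rhythm. With the replicate block, estimated from WT alone, 649 were higher, 230 lower and 2 differed in rhythm. Among the described genes that the naming rule chose, the calls lost were those of Acadl, Car3, Ciart, Col3a1, Cpt1a, Cry2, Cyp2c40, Cyp2c69, Elovl3, Gbe1, Haao, Hba-a1, Hsd3b7, Igfbp2, Itih3, Mcm6, Nr1h3, Per1, Qprt, Scd1, Sgk1 and Srebf2. Calls of the other genes described were counted by list only. With the block 0 fatty acid synthesis, immune cell and erythroid members rose, so Srebf1, Agpat2, H2-Ab1 and Hba-a2 lost theirs. Of the glucose and glycogen genes 1 rose, Irs2, so Gckr lost its call. WT replicate 1 alone gave 491 higher, 202 lower and 786 depending on feeding, and WT replicate 2 alone 2846 higher, 1523 lower and 0 in rhythm (658 unadjusted). Leaving out genes overlapping another on the opposite strand gave 1160 higher and 1833 depending on feeding, with 6537 genes tested. Leaving out the libraries with pancreas transcripts gave 2971, 1137, 3 and 4463. Voom on recovered reads gave 1107 higher, 278 lower and 1827 depending on feeding over 5691 genes. In 2 alternatives chosen after seeing the data, the FPKM of those genes gave 1033, 290, 0 (121 unadjusted) and 1737, and correction with WT replicate 1 alone gave 726 higher, 281 lower and 114 depending on feeding.

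Leaving out 1 library gave 1175 to 2284 higher, 310 to 725 lower, 0 to 3 in rhythm and 2344 to 3615 depending on feeding. The Bmal1LKO libraries of ZT4, ZT8, ZT16 and ZT20 each moved the level counts by over 1.5 times, to 1192, 1218, 1196 and 1175 higher and 310, 326, 315 and 311 lower. The rhythm call of Cry1 rests on single libraries, since with any 1 of 4 Bmal1LKO or 3 WT libraries left out 0 genes passed (limma) and 162 to 232 had an unadjusted p under 0.05. With 1 Bmal1LKO library per time, single time points have no replicate check.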
